A study of Mus musculus with 8 samples.

Results

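Runx1, Runx2 and Runx3, their shared partner Cbfb, the transcription regulators Batf3, Id2, Zeb2 and Tcf4, and the lectin gene Mgl2 were followed through monocytes and their bone marrow progenitors. The 9 genes were chosen by name, and all 9 were found, each once, among 13388 gene identifiers. Runx3, Batf3 and Mgl2 were already known to be higher in monocytes on OP9-DLL1 when the list was drawn up, so the response of monocytes is given as a description, with no p, and its counts past a threshold support nothing here.

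The study measured RNA in Ly6C+ classical monocytes and in cMoPs (common monocyte progenitors, the cells that give rise to monocytes), both sorted from the bone marrow of wild-type mice. The cells were kept for 6 h on a layer of OP9 stroma (a line derived from mouse bone marrow) or on OP9-DLL1, the same line carrying the Notch ligand DLL1. This gave 4 groups of 2 libraries, namely monocytes on OP9, monocytes on OP9-DLL1, cMoPs on OP9 and cMoPs on OP9-DLL1. All 4 groups were wild type and all had stroma beneath them, so no group shows either cell type before culture. The sources used here do not give the age of the mice, the gates of the sort or the way in which stroma was removed. Nothing states that replicates came from separate mice or cultures. The p-values therefore cover no more than the variation among these libraries, which may be technical. The comparisons ask what DLL1 does to each cell type and how the cell types differ on each stroma.

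Runx proteins bind DNA through their Runt domain and bind it more firmly when joined to Cbfb, which does not bind DNA itself. Runx1 acts in blood stem and progenitor cells, Runx2 is best known from bone and from plasmacytoid dendritic cells, and Runx3 acts in T cells, natural killer cells and dendritic cells. Dendritic cell fates are set in part by a balance of such regulators. Batf3 works with Irf8 in the conventional dendritic cells that present antigen to CD8 T cells (cDC1), Tcf4 (also called E2-2) drives plasmacytoid dendritic cells, Id2 holds E proteins such as Tcf4 away from DNA, and Zeb2 is a zinc finger repressor active in monocytes and several dendritic cell types. Mgl2 encodes CD301b, a sugar-binding receptor known as a marker of the cDC2 type of conventional dendritic cell. DLL1 acts through Notch receptors, whose cleaved form joins the DNA-binding protein RBPJ.

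Promoter sequence is shown for 4 genes picked by their measured difference in monocytes (Runx1, Runx3, Batf3 and Mgl2, those counted past a threshold below), and 1 short site for Runx2. It comes from RefSeq (GRCm38.p6), which had windows for 8 of the 9 genes, 13 windows in all, Tcf4 having none. The windows are the 250 bases before each RefSeq start, here cut to the bases outside the GENCODE M21 exons of the same gene, and are read 5′ to 3′ on the gene's strand. Capitals mark the Runx letters TGTGGT or TGCGGT and the RBPJ core TGGGAA, on either strand, so that ACCACA is TGTGGT read on the other strand.
Runx3, distal start, chr4:135120395-135120644, plus strand: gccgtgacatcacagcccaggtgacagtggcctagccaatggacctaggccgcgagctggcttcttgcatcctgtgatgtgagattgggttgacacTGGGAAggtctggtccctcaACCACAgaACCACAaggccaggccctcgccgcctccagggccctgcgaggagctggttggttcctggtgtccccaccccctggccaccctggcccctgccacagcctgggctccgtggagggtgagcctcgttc
Runx3, proximal start, chr4:135152295-135152495, plus strand: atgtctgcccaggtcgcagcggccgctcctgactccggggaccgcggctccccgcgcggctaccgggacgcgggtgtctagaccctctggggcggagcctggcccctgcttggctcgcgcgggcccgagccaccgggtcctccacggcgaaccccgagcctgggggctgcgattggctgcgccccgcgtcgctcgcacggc
Runx1, distal start, chr16:92826150-92826324, minus strand: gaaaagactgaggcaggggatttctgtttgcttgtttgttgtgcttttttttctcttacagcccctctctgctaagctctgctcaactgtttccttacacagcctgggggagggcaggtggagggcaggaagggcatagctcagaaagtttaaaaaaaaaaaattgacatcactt
Runx1, proximal start, chr16:92697330-92697579, minus strand: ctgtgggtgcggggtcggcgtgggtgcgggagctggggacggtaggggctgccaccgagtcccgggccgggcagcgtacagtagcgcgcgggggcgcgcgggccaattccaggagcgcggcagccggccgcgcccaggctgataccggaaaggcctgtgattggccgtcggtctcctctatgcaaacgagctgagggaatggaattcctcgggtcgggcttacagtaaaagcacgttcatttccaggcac
Batf3, chr1:191098238-191098324, plus strand: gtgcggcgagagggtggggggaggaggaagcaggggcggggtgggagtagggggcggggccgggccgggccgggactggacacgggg
Mgl2, chr11:70130107-70130328, plus strand: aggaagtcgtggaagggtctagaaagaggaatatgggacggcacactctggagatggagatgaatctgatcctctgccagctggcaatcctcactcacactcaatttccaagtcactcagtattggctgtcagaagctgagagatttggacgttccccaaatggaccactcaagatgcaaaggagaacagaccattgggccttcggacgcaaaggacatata
Runx2, site only, chr17:44814690-44814719, minus strand: gtgaggtcacaaACCACAtgattctgtctc

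The distal Runx3 window held TGGGAA 154 bases before the start and TGTGGT at 134 and 126 bases before it. The Runx2 window held TGTGGT 80 bases before its RefSeq start, inside a first exon of GENCODE. In the full windows TGTGGT was found in 2 of 13, against 14% of all 32851 RefSeq windows, and TGGGAA in 1 of 13, against 21.6%. No window of these genes held TGCGGT, the longer RBPJ form GTGGGAA (which contains TGGGAA) or the PU.1-type GAGGAAGT, found in 5.1%, 5.42% and 2.44% of all windows. The E-box CANNTG, the letters read by E proteins, was in 6 of 13 windows against 66.2%, and its CACCTG form, which Zeb2 also reads, in 2 of 13 (distal Runx3 and distal Runx1) against 17.2%. Matches describe these windows only and are no evidence of binding.

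Over the 13388 gene identifiers, 47316323 to 62459962 reads a library were recovered from the deposited log2 CPM (reads of a gene scaled to a common library size). Reads outside these genes are not counted. On the deposited scale 1 read was worth 0.0151 to 0.0231 CPM. All 8 monocyte genes fixed for the label check were detected, 6 of them lower and 2 higher in cMoPs on both stromata, and 7 of 8 progenitor genes were higher in cMoPs. Of all genes tested, 27.7% were lower and 28.8% higher in cMoPs on OP9, and 29.2% and 28.2% on OP9-DLL1. Of 20 stromal genes 7 were in the table, and their summed level was 28.1 and 29.3 CPM in monocytes on OP9, 4.87 and 21.0 on OP9-DLL1, and 0.62 to 2.97 CPM in the 4 cMoP libraries. Pdgfrb, 1 of the 7, ran against that sum, at 0.023 and 0.205 CPM in monocytes on OP9 and 2.89 and 4.23 CPM on OP9-DLL1. Runx2 is also a gene of stromal cells. In monocytes it was higher on OP9-DLL1, where the stromal sum was lower and Pdgfrb higher, and the part of stromal RNA in any value below was not tested. In bulk RNA, fewer cells of a type and less RNA per cell cannot be told apart.

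Among monocytes, all 3 Runx genes were higher on OP9-DLL1 than on OP9, and Runx3 stood furthest apart. Runx3 measured 16.9 and 25.0 CPM on OP9 and 64.5 and 84.5 CPM on OP9-DLL1. The lower OP9-DLL1 library was above the higher OP9 library by a wide margin, and the fitted log2 difference was 1.85 ± 0.22 (SE, n = 2 libraries a group), a 3.60-fold higher level. Runx1 measured 40.1 and 48.4 CPM on OP9 against 75.7 and 78.1 CPM on OP9-DLL1, a log2 difference of 0.80 ± 0.15. Runx2, per kb of exon the lowest of the Runx genes, measured 6.81 and 13.3 CPM against 18.5 and 21.0 CPM, with a log2 difference of 1.05 ± 0.28. The Runx2 libraries on OP9 differed from each other nearly as much as the groups did. Cbfb, without which Runx proteins bind DNA weakly, measured 23.8 and 26.0 CPM on OP9 and 21.5 and 24.1 CPM on OP9-DLL1. The Cbfb groups overlapped, with a log2 difference of -0.13 ± 0.15 (95% interval -0.46 to 0.20).

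**Figure D1:**
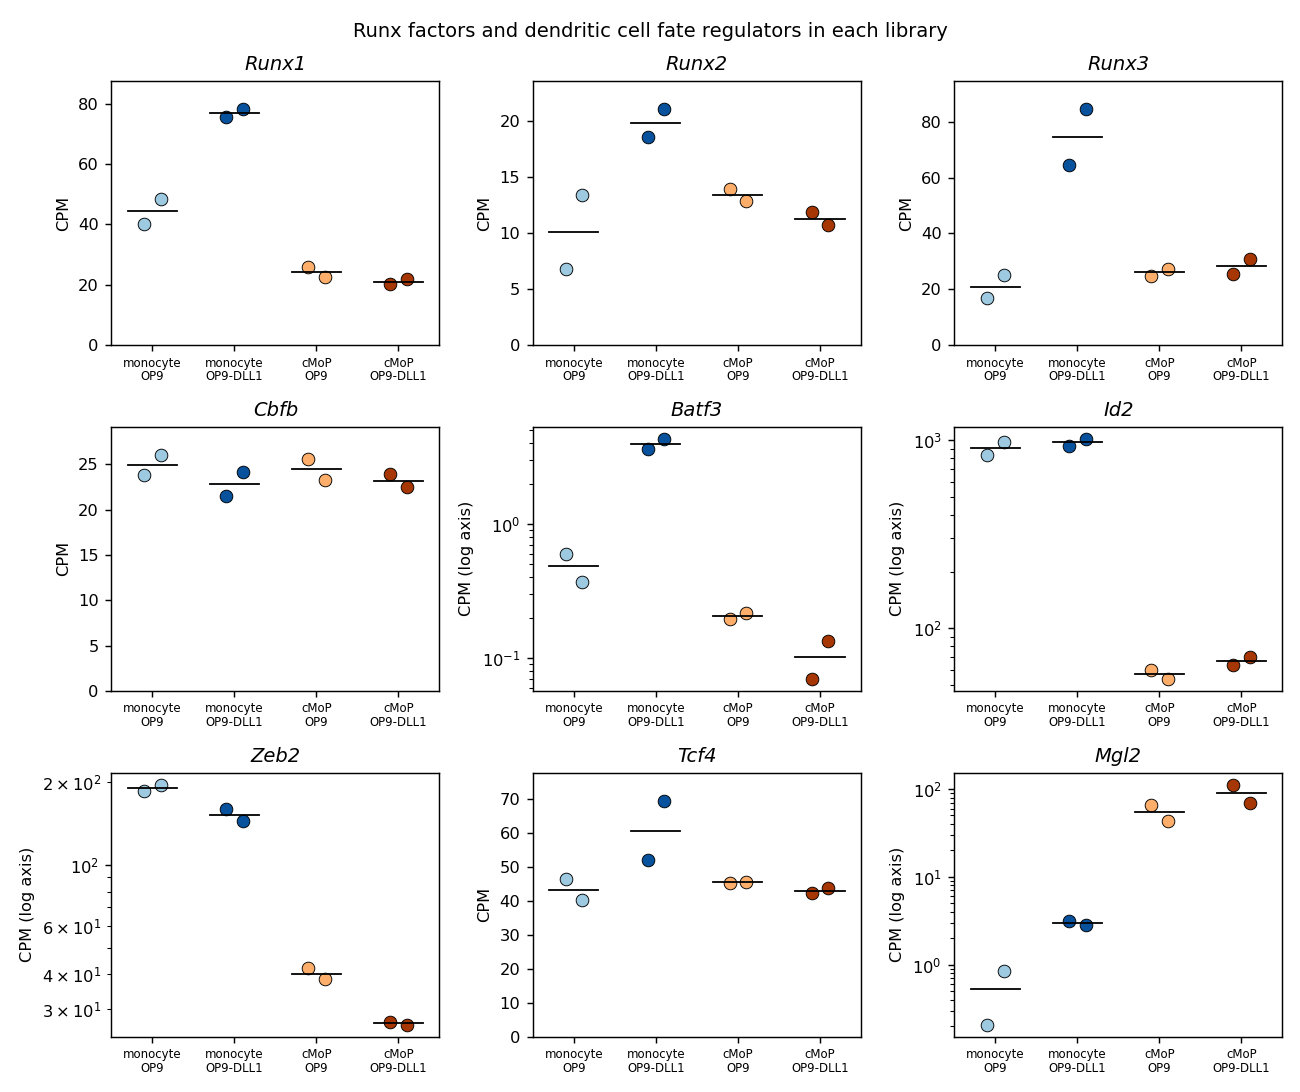
Level of each gene in every library, in CPM (on a log axis for Batf3, Id2, Zeb2 and Mgl2), by cell type and stroma. Points are libraries and lines are group means. Runx3 in monocytes lay at 16.9 and 25.0 CPM on OP9 and at 64.5 and 84.5 CPM on OP9-DLL1, while its 4 cMoP libraries lay between 24.7 and 30.9 CPM.

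Batf3 and Mgl2 had the largest log2 differences of the 9 genes in monocytes, from low levels. Batf3 gave 26 and 20 reads on OP9 (0.600 and 0.372 CPM) and 175 and 222 reads on OP9-DLL1 (3.59 and 4.31 CPM). Both OP9-DLL1 libraries lay well above both OP9 libraries, and the log2 difference was 3.03 ± 0.66. Mgl2 gave 9 and 45 reads on OP9 (0.208 and 0.837 CPM) and 152 and 145 reads on OP9-DLL1 (3.12 and 2.81 CPM), a log2 difference of 2.79 ± 0.53. The OP9 libraries of Mgl2 were unlike each other, so the size of its difference is loosely set, running from 1.41 to 3.76 over the alternative settings. Mgl2 is also a gene with high levels in cMoPs, and Ms4a3, a progenitor gene, was also higher in these monocytes, at 2.33 and 4.20 CPM on OP9 and 13.7 and 16.1 CPM on OP9-DLL1. The summed level of the 8 progenitor genes measured overlapped, at 235 and 448 CPM on OP9 and 359 and 401 CPM on OP9-DLL1. Of those 8 genes 1 was higher past the threshold in monocytes, and 7 without the second library on OP9. In the fit to all 8 libraries, 3.36% of all genes tested were higher in monocytes. The part of the progenitor genes in the Mgl2 difference was not tested.

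Id2, Zeb2 and Tcf4 each differed less than the Runx genes, Batf3 and Mgl2 in monocytes. Id2, per kb of exon the most abundant of the 9 in monocytes, measured 834 and 971 CPM on OP9 and 933 and 1015 CPM on OP9-DLL1. These groups overlapped, with a log2 difference of 0.11 ± 0.12. Zeb2 measured 186 and 196 CPM on OP9 and 160 and 144 CPM on OP9-DLL1, a log2 difference of -0.33 ± 0.12. Tcf4 measured 46.4 and 40.1 CPM on OP9 and 51.9 and 69.3 CPM on OP9-DLL1, a log2 difference of 0.48 ± 0.16. The groups of Zeb2 and of Tcf4 did not overlap.

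Of the 9 genes, 4 were past an adjusted p of 0.05 in monocytes (Runx1, Runx3, Batf3 and Mgl2), all higher, beside 6.39% of the 13374 genes tested in either direction and 3.36% higher. Because the list was drawn up with this contrast in view, nothing is read from that count. The 2 groups of monocyte libraries did not overlap for 7 of the 9 genes, a state shared by 47.8% of all genes. Of all calls in monocytes 52.6% were higher, and 39.9% when libraries were centred on their medians, with the same 4 of 9 genes past the threshold in that fit. The authors' deposited table put 3 of the 9 past 0.05 (Runx1, Runx3 and Batf3). The count of 4 moved with the settings, to 1 without either monocyte library on OP9-DLL1, 3 without the second cMoP library on OP9 and 5 without the second monocyte library on OP9. It was 2 without the variance trend or with only the 4 monocyte libraries, 3 with library weights and 5 with log2 of CPM + 1. With voom and with a filter of 5 CPM it stayed at 4, but Runx2 took the place of Mgl2 in the former and of Batf3 in the latter. Batf3 reached the 1 CPM filter only through the 2 monocyte libraries on OP9-DLL1, so it entered the fit because it was high there. Over the alternatives that could be fitted, the log2 difference ran from 1.56 to 2.13 for Runx3, from 0.667 to 0.938 for Runx1, from 0.566 to 1.53 for Runx2 and from 1.73 to 3.37 for Batf3.

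**Figure D2:**
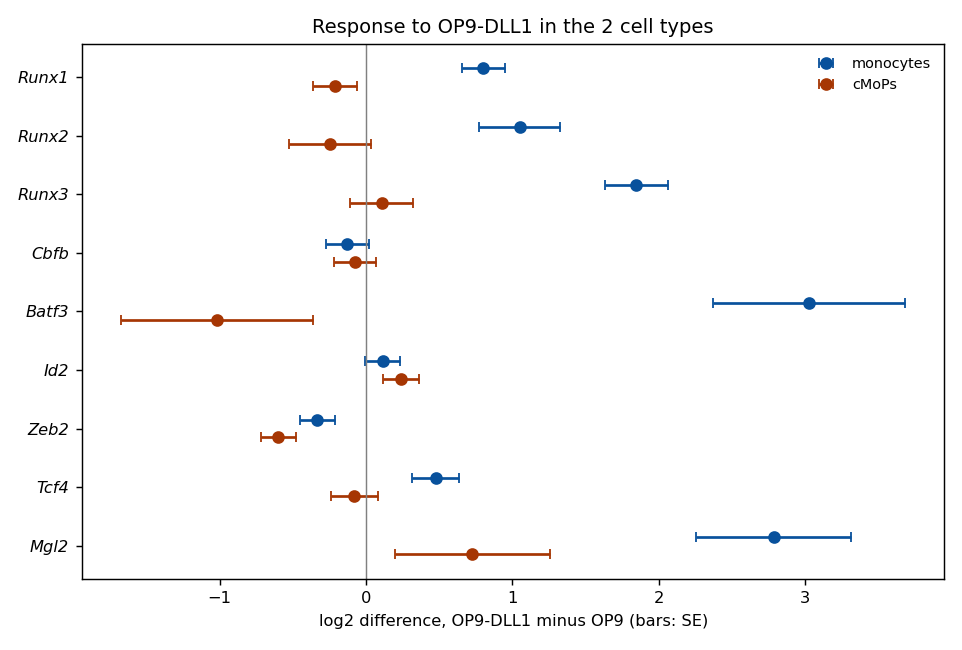
Log2 difference between OP9-DLL1 and OP9 for each gene, with bars of 1 SE, in monocytes and in cMoPs. Runx3 lay at 1.85 in monocytes and 0.11 in cMoPs, Batf3 at 3.03 and -1.02, and Cbfb near 0 in both.

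The response of cMoPs was tested for all 9 genes and was small for most of them. None of the 9 passed the limma test with Benjamini-Hochberg adjustment, 1 (Zeb2) had an unadjusted p under 0.05, and 0.77% of all genes tested passed. With voom 0 of the 9 passed, with library weights 1 (Zeb2), and the authors' deposited table also held 1 (Zeb2). A miss does not show that DLL1 had no effect, so the intervals are given.

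Runx3 measured 24.7 and 27.4 CPM in cMoPs on OP9 and 25.5 and 30.9 CPM on OP9-DLL1. The groups overlapped, and the log2 difference of 0.11 ± 0.22 had a 95% interval of -0.38 to 0.59 (limma adjusted p = 0.94). Runx1 measured 26.0 and 22.7 CPM against 20.1 and 21.9 CPM, a log2 difference of -0.21 ± 0.15 with an interval of -0.54 to 0.12 (limma adjusted p = 0.74). Runx2 measured 13.9 and 12.8 CPM against 11.9 and 10.7 CPM, a log2 difference of -0.25 ± 0.28 (limma adjusted p = 0.88). Cbfb again stayed level, at 25.6 and 23.3 CPM against 23.9 and 22.5 CPM (limma adjusted p = 0.94).

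Zeb2 came closest to the threshold in cMoPs, where it was lower on OP9-DLL1. It measured 42.1 and 38.4 CPM on OP9 and 26.8 and 26.2 CPM on OP9-DLL1. The groups stood clear of each other, with a log2 difference of -0.60 ± 0.12, and the limma adjusted p was 0.069. It passed in 4 of 17 alternatives, among them the fits without either monocyte library on OP9, and over all 17 the adjusted p ran from 0.0134 to 0.389. The authors' deposited table gives for Zeb2 an adjusted p of 0.030. Zeb2os, an antisense gene whose exons overlap those of Zeb2, measured 2.51 and 1.66 CPM against 1.60 and 2.06 CPM in the same cells. The library kit does not mark strand, so reads of the 2 genes cannot be told apart where they overlap.

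Id2 in cMoPs measured 60.0 and 53.8 CPM on OP9 and 64.0 and 70.2 CPM on OP9-DLL1, a log2 difference of 0.24 ± 0.12 (limma adjusted p = 0.61). Tcf4 was nearly even over the 4 cMoP libraries, at 45.2 and 45.5 CPM against 42.2 and 43.6 CPM (limma adjusted p = 0.94). Batf3 was close to the limit of counting, with 13 and 12 reads on OP9 and 4 and 8 reads on OP9-DLL1, and its interval of -2.50 to 0.46 on the log2 scale is correspondingly wide. Mgl2 measured 65.9 and 43.2 CPM on OP9 and 112 and 69.6 CPM on OP9-DLL1. The lower OP9-DLL1 library of Mgl2 was barely above the higher OP9 library, and the log2 difference of 0.73 ± 0.53 did not pass (limma adjusted p = 0.76). The groups of cMoP libraries did not overlap for 7 of the 9 genes, which was so for 46.7% of all genes.

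The response of cMoPs minus that of monocytes was negative by more than 1 log2 unit for Runx1 (-1.01 ± 0.21), Runx2 (-1.30 ± 0.40), Runx3 (-1.74 ± 0.30), Batf3 (-4.05 ± 0.93) and Mgl2 (-2.06 ± 0.75). It was -0.56 ± 0.23 for Tcf4 and -0.27 for Zeb2, and 0.13 for Id2 and 0.05 for Cbfb. None of the 9 differences passed the limma test, with adjusted p from 0.154 (Runx3) to 0.956 (Cbfb), while 6 had an unadjusted p under 0.05 and 0.0523% of all genes passed. With voom none passed either, and with log2 of CPM + 1 Batf3 did (limma adjusted p = 0.0338). Leaving out the second monocyte library on OP9 put 4 past the threshold (Runx1, Runx2, Runx3 and Mgl2). The monocyte response enters this difference, so its size, p-values and calls are in part set by how the genes were chosen. Nothing is read from the calls in any setting.

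The 3 Runx genes and Cbfb were also set side by side per kb of exon. The summed Runx level was 7.48 and 10.5 CPM per kb in monocytes on OP9 and 21.3 and 25.8 CPM per kb on OP9-DLL1. In cMoPs it was 8.68 and 8.81 CPM per kb on OP9 and 8.11 and 9.20 CPM per kb on OP9-DLL1, within the range of monocytes on OP9. The ratio of that sum to Cbfb was 1.09 and 1.41 in monocytes on OP9 and 3.44 and 3.72 on OP9-DLL1, against 1.18 to 1.43 over the 4 cMoP libraries. The share of Runx3 in the sum was 45.1% and 47.4% in monocytes on OP9 and 60.6% and 65.6% on OP9-DLL1. In cMoPs Runx3 already made up 56.9% to 67.1% on either stroma, with less Runx1 beside it. Lengths join the exons of all isoforms, so the true level per transcript may be higher, above all for Tcf4 (27382 bases) and Zeb2 (19942 bases), and antisense genes overlap exons of Runx1 and Runx2.

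**Figure D3:**
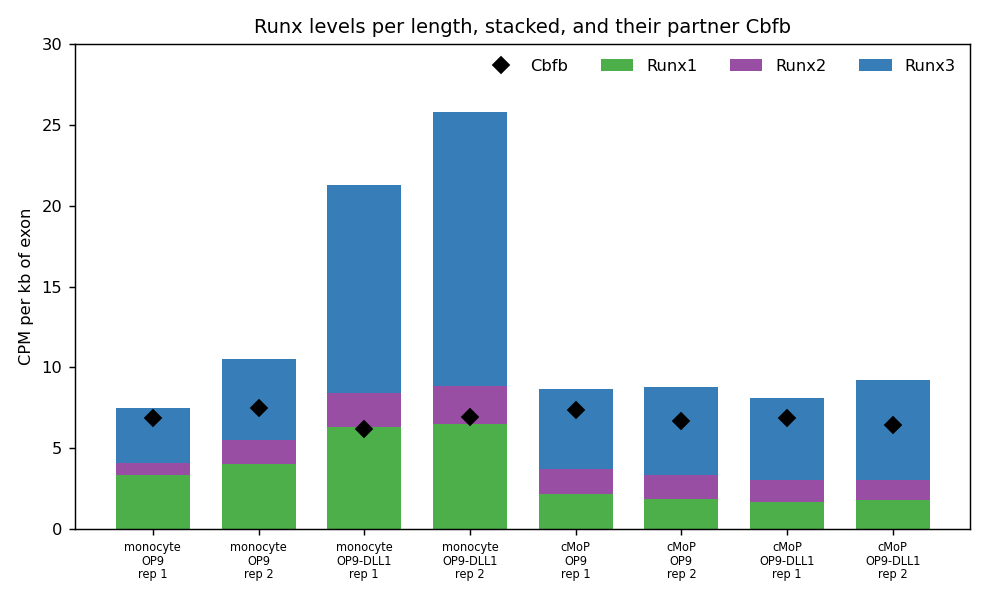
Stacked bars give Runx1, Runx2 and Runx3 in CPM per kb of exon for each of the 8 libraries, and diamonds give Cbfb on the same axis. The stacks of the monocyte libraries on OP9-DLL1 reached 21.3 and 25.8 CPM per kb while the Cbfb diamonds stayed between 6.18 and 7.48 CPM per kb in all 8 libraries.

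Between the cell types the regulators Id2 and Zeb2 differed most among the 6 genes that could be tested. On OP9, Id2 was lower in cMoPs by a log2 difference of -3.99 ± 0.12 (limma adjusted p = 1.0e-07), a 15.8-fold lower level. Zeb2 was lower by -2.25 ± 0.12 (limma adjusted p = 1.3e-06) and Runx1 by -0.86 ± 0.15 (limma adjusted p = 0.0010). Runx2 (0.49 ± 0.28), Cbfb (-0.03 ± 0.15) and Tcf4 (0.07 ± 0.16) did not pass, with limma adjusted p of 0.16, 0.89 and 0.71. Without the second monocyte library on OP9 Runx2 was higher in cMoPs, by 0.97 (limma adjusted p = 0.0020). So 3 of 6 were lower and none higher, beside 56.5% of all genes called in either direction, 27.7% lower and 28.8% higher.

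On OP9-DLL1 the log2 difference was -3.86 ± 0.12 for Id2, -2.52 ± 0.12 for Zeb2 and -1.87 ± 0.15 for Runx1 (limma adjusted p = 1.2e-07, 5.1e-07 and 7.9e-06). Runx2, at -0.81 ± 0.28, and Tcf4, at -0.48 ± 0.16, were also lower in cMoPs there (limma adjusted p = 0.033 and 0.027). The Runx2 call was lost in 7 of 17 alternatives, which were the fit without the variance trend and every fit that left out a cMoP library or a monocyte library on OP9-DLL1 (limma adjusted p up to 0.14). The Tcf4 call was lost in 5 of 17, among them the median-centred fit and those without the second monocyte library on OP9-DLL1 or without either cMoP library on OP9-DLL1 (limma adjusted p up to 0.218). Cbfb was level at 0.03 ± 0.15. So 5 of 6 were lower, beside 57.4% of all genes called, 29.2% lower and 28.2% higher. The groups of libraries did not overlap for 78.4% of all genes on OP9 and for 82.8% on OP9-DLL1.

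For Runx3, Batf3 and Mgl2 the cell type contrasts are given as values only, since they share the monocyte libraries. Runx3 was 0.34 ± 0.22 log2 units higher in cMoPs on OP9, with overlapping groups, and -1.40 ± 0.22 on OP9-DLL1. Batf3 stood at -1.16 ± 0.66 and -5.21 ± 0.66. Mgl2 ran the other way, at 6.95 ± 0.53 on OP9 and 4.89 ± 0.53 on OP9-DLL1, with 2369 to 6389 reads in cMoP libraries and 9 to 152 in monocyte libraries. Its neighbour Clec10a (CD301a), a near-identical gene that could share reads with it, measured 13.5 ± 3.2 and 18.9 ± 3.2 CPM (SD, n = 2) in cMoPs and 16.0 ± 7.5 and 13.9 ± 2.8 CPM in monocytes, on OP9 and OP9-DLL1. Most other genes of the cDC2 list below were lower in cMoPs. Of 13 measured, 9 were lower and 1 higher on OP9 (median log2 difference -3.57). On OP9-DLL1 10 were lower and 1 higher (median -3.77). Over all genes 27.7% were lower and 28.8% higher on OP9, and 29.2% and 28.2% on OP9-DLL1.

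**Figure D4:**
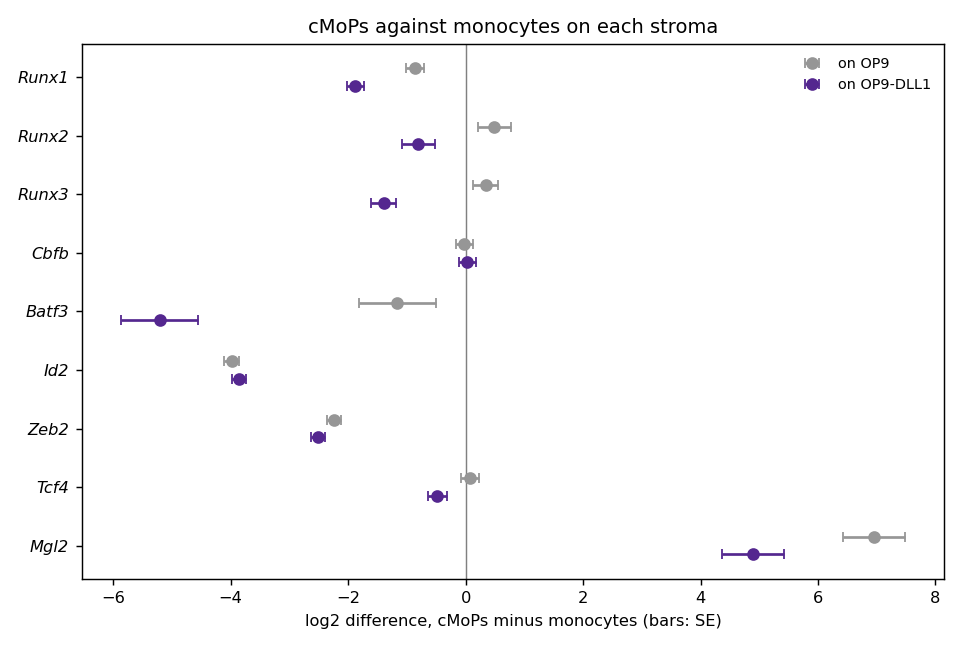
Log2 difference between cMoPs and monocytes for each gene on OP9 (grey) and on OP9-DLL1 (purple), with bars of 1 SE. Id2 lay near -4 on both stromata, Mgl2 at 6.95 and 4.89, and Runx3 at 0.34 on OP9, where its groups overlapped, and at -1.40 on OP9-DLL1.

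Ranked per kb of exon, Id2 led in monocytes with 370 CPM per kb on OP9 and 399 on OP9-DLL1, far above the next gene. On OP9 it was followed by Zeb2 (9.59), Cbfb (7.16), Runx3 (4.18), Runx1 (3.68), Tcf4 (1.58), Runx2 (1.14), Batf3 (0.304) and Mgl2 (0.249), all in CPM per kb. The libraries of Runx3 and Runx1, of Tcf4 and Runx2, and of Batf3 and Mgl2 overlapped in that order. On OP9-DLL1 Runx3 (14.9 CPM per kb) stood second, above Zeb2 (7.62), and Cbfb (6.56) and Runx1 (6.39) overlapped. Batf3 (2.47), Runx2 (2.24) and Tcf4 (2.21) came next, each overlapping its neighbour, and Mgl2 (1.42) was last. In cMoPs Mgl2 led with 26.1 CPM per kb on OP9, overlapping Id2 (23.3), and with 43.4 on OP9-DLL1, clear of Id2 (27.5). Cbfb (7.03 and 6.67) and Runx3 (5.21 and 5.63) followed on both stromata, Runx1, Zeb2, Tcf4 and Runx2 lay between 1.28 and 2.02 CPM per kb, and Batf3 was last at 0.130 and 0.064. The ratio of Id2 to Tcf4 per kb was 164 to 272 over the monocyte libraries and 13.3 to 18.1 over the cMoP libraries. The ratio of Id2 to Zeb2 was 36.58 and 40.55 in monocytes on OP9 and 47.76 and 57.63 on OP9-DLL1. In cMoPs it was 11.66 and 11.46 on OP9 and 19.56 and 21.89 on OP9-DLL1. The size of these ratios depends on the lengths used (2438 bases for Id2, 27382 for Tcf4, 19942 for Zeb2). In plain CPM, monocytes on OP9 averaged 903 for Id2 and 43.2 for Tcf4.

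Lists of related genes, drawn up with earlier results of these data known and leaving out the 9 genes, place these values among their partners and targets. Of 14 measured Runx partners and corepressors, 1 was higher past the threshold in monocytes on OP9-DLL1 (Cbfa2t3, a corepressor of the ETO family) and 0 in cMoPs, with median log2 differences of 0.09 and -0.07 against 0.01 and 0.01 over all genes. Over all genes 3.36% were higher in monocytes and 0.77% were called in cMoPs. Without either monocyte library on OP9-DLL1 no partner was higher. Of 13 measured genes described as Runx targets, 4 were higher and 1 lower in monocytes, with a median of 0.28, and 1 was higher and 1 lower in cMoPs, with a median of 0.34. The 4 higher ones in monocytes became 2 without the first monocyte library on OP9-DLL1 and 7 without the second on OP9, and in cMoPs the 1 became 3 without either monocyte library on OP9. Spp1, which encodes osteopontin, was lower on OP9-DLL1 in monocytes (1777 and 2627 CPM against 280 and 265 CPM) and in cMoPs (1278 and 1634 CPM against 213 and 233 CPM). Itgax, which encodes CD11c, was higher, at 1.43 and 1.21 CPM against 22.8 and 28.0 CPM in monocytes and at 0.574 and 1.31 CPM against 6.81 and 8.37 CPM in cMoPs. The cMoP differences were -2.70 ± 0.18 for Spp1 and 3.11 ± 0.37 for Itgax, both past the threshold. Because the lists were drawn up with earlier results known, nothing is read from these calls.

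Of 24 other dendritic cell fate factors measured, 4 were higher in monocytes on OP9-DLL1 (Irf8, Etv6, Cbfa2t3 and Id3) and none lower, beside 3.36% of all genes higher, with a median of 0.29, and none passed in cMoPs, beside 0.77% of all genes, with a median of -0.18. Irf8, the partner of Batf3 in cDC1 cells, measured 59.5 and 75.6 CPM in monocytes on OP9 and 160 and 234 CPM on OP9-DLL1, a log2 difference of 1.53 ± 0.22. In cMoPs Irf8 lay between 195 and 320 CPM on either stroma, where Batf3 was lowest. Without the second monocyte library on OP9-DLL1 none of the 24 was higher past the threshold, without the first 1 was (Irf8), and without the second on OP9 7 were. Between cell types, 3 of the 24 were higher and 11 lower in cMoPs on OP9, and 3 higher and 14 lower on OP9-DLL1, Id3 and Nfil3 among the lower ones. Over all genes 28.8% were higher and 27.7% lower on OP9, and 28.2% and 29.2% on OP9-DLL1. The 3 higher on OP9-DLL1 became 0 without the second cMoP library there, 2 without the first, and 1 without the first monocyte library there.

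Of all genes tested, 6.39% passed in monocytes in either direction, 3.36% higher, and 0.77% passed in cMoPs. Among marker genes of the mature types, 2 of 6 measured cDC1 genes were higher in monocytes, Irf8 from the list above among them. In monocytes 1 was lower, and 0 passed in cMoPs. The 2 became 0 without the second monocyte library on OP9-DLL1 and 1 without the first or without any cMoP library, and ran up to 3 without the first monocyte library on OP9. For cDC2 and monocyte-derived dendritic cells, 3 of 13 were higher in monocytes (Itgax, H2-Ab1 and Ciita) and 2 in cMoPs (Ciita and Itgax). Itgax was already counted above among the genes described as Runx targets. The Ciita call in monocytes was lost without the second monocyte library on OP9-DLL1, and the Itgax call in cMoPs without the second cMoP library there. Ciita, the switch for MHC class II genes, gave 0 reads in both cMoP libraries on OP9 and 39 and 45 reads on OP9-DLL1, which is at least 29.1-fold higher when the OP9 group is set at 3 reads. For plasmacytoid dendritic cells only 3 of 13 genes were measured, with 1 higher in monocytes, lost in 6 of the 8 fits that leave out a library, and 0 in cMoPs. Of the genes used to define these types, Clec9a, Cadm1, Zbtb46, Flt3, Ccr7, Siglech and Spib were among those with no entry of that name in the deposited data. The 9 genes are therefore followed as genes and not as signs of a finished cell type.

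**Figure D5:**
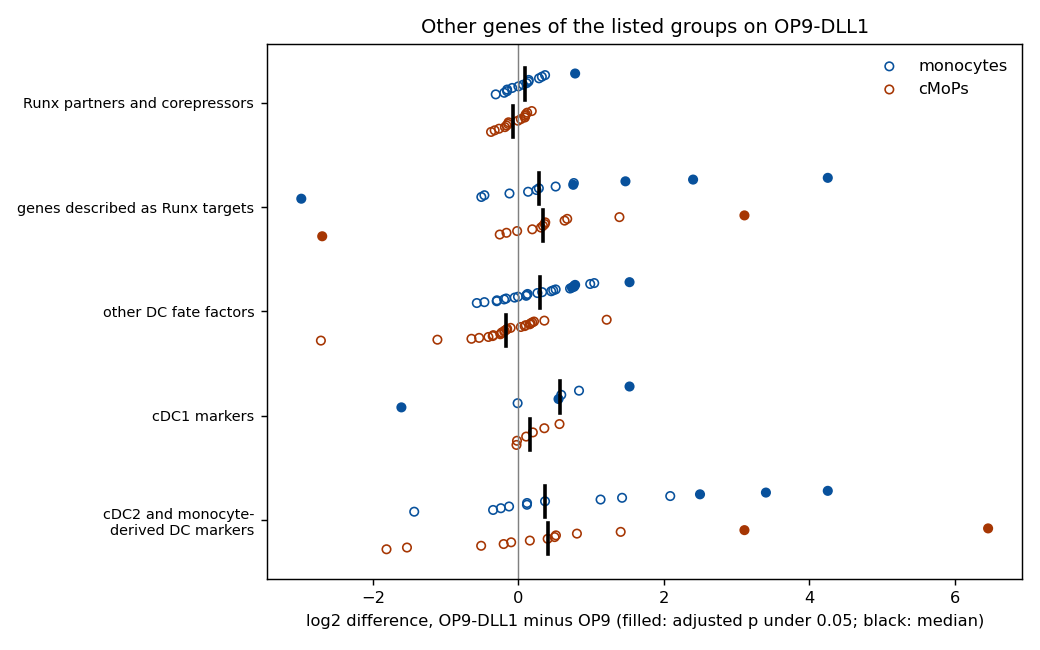
Log2 difference between OP9-DLL1 and OP9 for measured genes of 5 lists, in monocytes and in cMoPs. Each point is a gene, filled where the adjusted p was under 0.05, and black bars are medians; the cMoP point furthest to the right is Ciita, whose place depends on the prior of the log2 scale. The Runx partners centred near 0 in both cell types (medians 0.09 and -0.07), and the other dendritic cell fate factors had medians of 0.29 in monocytes and -0.18 in cMoPs.

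For each of the 9 genes, genes were named from the 3 with the most similar log2 CPM over the 8 libraries, found among 8967 genes (8968 for Batf3), as a description in which the points share libraries and 4 group means. Runx3 was followed most closely by Tpmt and Slc46a3 (Pearson r = 0.985 and 0.975), Runx1 by Gnaq, Acot11 and Hps5 (0.992, 0.991 and 0.989) and Runx2 by Bnip2, Txndc16 and Fut4 (0.993, 0.975 and 0.961). Batf3 was followed by Ppp2cb, Ptgir and Mapk14 (0.976, 0.974 and 0.974). For the genes dominated by the cell type, r was higher, as for Zeb2 with Vcan, Diaph1 and Lilr4b (0.9995, 0.998 and 0.997), Id2 with Ms4a4a, Trim30d and Clec4a3 (0.999, 0.998 and 0.998) and Mgl2 with Fads2, Cnot10 and Dhx30 (0.997, 0.996 and 0.996). Cbfb, which varied least, had Agps and Ranbp2 (0.937 and 0.912). Tcf4 had Mib2, Pigv and Apba3 (0.958, 0.940 and 0.939), though by Spearman's rho Pigv and Apba3 were less alike (0.643 and 0.786).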

How the data were processed

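The submitters' processing notes name STAR 2.7.9a, featureCounts 2.0.3, Subread, Salmon 1.5.2, edgeR, limma, bcl2fastq and the mm10 build. Per the labels' protocols, cDNA came from a kit that does not mark strand and was read in pairs of 150 bases. The authors deposited 1 table of 13430 entries with log2 CPM per library, and the log2 fold changes and p-values of their comparisons, used here only where named. Of these, 42 repeated identifiers were dropped. The log2 CPM deposited hold a prior of 0.5 reads, and whole reads were recovered for 100% of values (tolerance 0.001).

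limma 3.58.1 (R 4.3.3, trended variance, 4 group means, 4 residual degrees of freedom, two-sided) was fitted to the 13374 genes that reached 1 CPM in 2 or more libraries, with Benjamini-Hochberg adjustment over all of them and a threshold of 0.05. The fit was also run on simulated reads, with the same biological spread set for every gene and changes only in cMoPs on OP9-DLL1. Those settings differ from these data, so nothing is read from that run here. Gene positions and lengths come from GENCODE M21. The genes and lists were chosen with earlier results of these data known. From each list, up to 4 genes past the threshold by adjusted p were eligible to be named, and where none passed up to 2 by unadjusted p.

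The monocyte response was set to carry no p. The difference of responses was also set to carry none, and its adjusted p-values were added after they had been seen, because none passed. A comparison of Runx protein sequences was planned and not run. Some genes that the rule on similar genes would name are not reported here. CPM and reads carry counting error beside the spread between libraries.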

Additional observations from a re-analysis of the deposited data

Results flagged for a closer look

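For 4 of the 9 genes both OP9-DLL1 libraries lay above both OP9 libraries in monocytes and below them in cMoPs. That pattern was shown by 354 of all 13374 genes tested (2.65%), and opposite directions either way by 782 (5.85%). The genes were chosen with the monocyte response known, so nothing is read from the count of 4 or from the p-values of the difference given below. The response of cMoPs minus that of monocytes was -1.01 for Runx1, -1.30 for Runx2, -4.05 for Batf3 and -0.56 for Tcf4 on the log2 scale. The test of the difference itself passed for none of them, with limma adjusted p of 0.18, 0.36, 0.22 and 0.47. Over the alternatives the adjusted p ran from 0.0107 to 0.572 for Runx1, from 0.00571 to 0.792 for Runx2, from 0.0338 to 0.572 for Batf3 and from 0.241 to 0.846 for Tcf4. Within cMoPs the difference of none of the 4 passed, Batf3 resting on 25 reads on OP9 and 12 on OP9-DLL1. The summed stromal markers differed between the libraries compared, from 28.1 and 29.3 CPM to 4.87 and 21.0 CPM in monocytes, and their part in these differences was not tested.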

How the results depend on the processing

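The count of the 9 genes past the threshold in monocytes went from 4 to 2 without the variance trend and with only the 4 libraries compared, and from 1 to 5 when a library was left out. In cMoPs it went from 0 to 1 with library weights and with only 4 libraries, and from 0 to 1 leaving out a library. On OP9-DLL1 the count between cell types went from 5 to 3 without the trend, and from 3 to 5 leaving out a library. For the difference of responses it went from 0 to 1 with log2 of CPM + 1 (Batf3), and from 0 to 4 leaving out a library. With the replicate number as a block, the counts were 5, 0, 3, 5 and 1 (Runx3, limma adjusted p = 0.0254) in monocytes, cMoPs, on OP9, on OP9-DLL1 and for the difference. Over all genes, deviations from the group means correlated little between libraries of the same number (0.0227 to 0.0891). Whether libraries of the same number shared a step of the work was not tested.
Signs turned only for differences that had not passed. These were Runx3 in cMoPs (-0.030 without the second OP9-DLL1 library, up to 0.25 leaving out another), Cbfb on OP9 (0.0010 median-centred, 0.038 without the second monocyte library, 0.042 without the second cMoP library, down to -0.095 leaving out another), Tcf4 on OP9 (-0.031 without the second monocyte library, up to 0.18 leaving out another) and Cbfb on OP9-DLL1 (-0.057 without the first monocyte library, -0.021 without the first cMoP library). The difference of responses of Cbfb, 0.051 in the main fit, also turned, running from -0.031 to 0.134 over the alternatives. Median-centring moved the median of all genes by 0.11 in the cell type contrast on OP9-DLL1. The cause of these changes was not tested, beyond fewer libraries in the fits that leave one out. On 1 strand the share of windows was 11.3% for TGGGAA, 2.73% for GTGGGAA, 7.42% for TGTGGT, 2.59% for TGCGGT, 8.83% for CACCTG and 1.33% for GAGGAAGT. Depth limits Batf3 in cMoPs most, at 4 to 13 reads a library. The protein comparison was not run.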
